A study of Homo sapiens with 48 samples.

Results

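Carfilzomib was compared with its solvent in RKO, a poorly differentiated human colon carcinoma line. The comparison takes all 6 libraries of that line from the 48 of the series, chosen by their labels, and describes them across all genes. RKO cells in dish culture received carfilzomib for 24 h, at the IC50 for proteasome activity, or the solvent DMSO alone, with 3 biological replicates in each group. The concentration was set for each line and its value is not used here. The other 42 libraries hold the same treatments of 7 other cancer lines, among them the colon line DLD-1 with 6 libraries. The measured quantity was the number of reads per gene, with total counts of 12649819 to 22555980 per RKO library. Depth sets the counting error only, and p-values describe the spread between these replicate cultures of 1 line.

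Carfilzomib binds the chymotrypsin-like site of the proteasome, carried by the subunit PSMB5, and blocks the breakdown of proteins tagged with ubiquitin. Cells commonly answer such a block through several transcription factors: HSF1 drives the inducible chaperones, NFE2L1 drives the genes of the proteasome itself, NRF2 drives antioxidant genes, and ATF4 drives the integrated stress response. Proteins with a short life, such as the cyclins, are substrates of the proteasome. The questions taken up here are which of these programmes moved in RKO and how RKO differed from the other lines.

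The labelled tissue was only partly borne out by the colon epithelial markers. CDX2 had 290 to 523 counts per library, EPCAM 87 to 212, and KRT8 and KRT18 averaged 60.7 and 82.4 CPM after DMSO (CPM, the count of a gene scaled to a common library size with TMM factors). CDX1, KRT19, KRT20, LGALS4, MUC2 and CEACAM5 had no count in any library, CDH1 had 0 to 1, CDH17 0 to 7 and GPA33 0 to 3. Of 9 mesenchymal markers, 3 had enough counts for a test and 6 did not, and among those tested VIM averaged 22.5 and ZEB1 857 CPM after DMSO. Of the leukocyte and plasma cell markers, PTPRC, CD3E and MS4A1 were at 0 in every library, CD79A, JCHAIN, MZB1 and CD38 had 0 to 7 counts, and TNFRSF17 (18 to 45 counts) and SDC1 (1150 to 1979 counts, a gene that epithelia also express) had enough for a test. Both had log2 fold changes below 0 (-0.54 and -0.13) and no overlap between the groups, as had 14.3% of all genes tested in that direction. Of 4 endothelial markers, CDH5 and KDR were at 0, PECAM1 had 0 to 3 and VWF 1 to 13 counts. None of the 10 marker genes that had enough counts for a test passed it.

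After carfilzomib 525 genes were higher and 767 lower among 14522 tested, 3.62% and 5.28%, with edgeR's quasi-likelihood test at a Benjamini-Hochberg adjusted p under 0.05. Most changes were small: 113 of the higher and 160 of the lower genes differed by at least 1.5-fold, and 57 and 18 by at least 2-fold. The 3 carfilzomib libraries all lay above the 3 DMSO libraries for 13.9% of the genes tested and below them for 14.3%, called or not. Against a null fold change of 1.5, 6 genes were higher and 8 lower. Leaving out 1 library at a time gave 197 to 482 genes higher and 403 to 774 lower, and none of the genes called in both fits changed sign. The higher count was 341 without DMSO replicate 2, 310 without DMSO replicate 3, and 339, 257 and 197 without carfilzomib replicates 1, 2 and 3. The lower count was 500 without carfilzomib replicate 2 and 403 without carfilzomib replicate 3. Library totals in place of TMM moved the share of higher genes among those called from 40.6% to 60.9%, with a shift of the median of all genes from 0.0039 to 0.05 on the log2 scale. Of the rows tested, 597 share an Ensembl identifier with another row, 36 of them called, and values on such rows are uncertain.

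**Figure D1:**
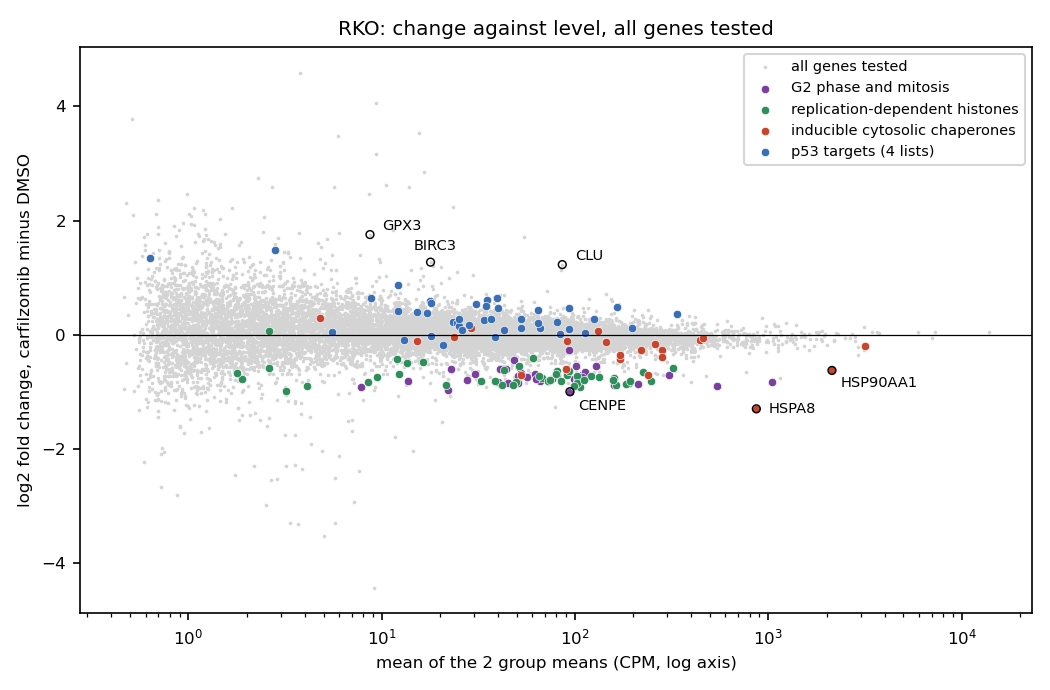
Log2 fold change (carfilzomib minus DMSO) of each of the 14522 genes tested in RKO against its level, the mean of the 2 group means in CPM on a log axis, with gene lists in colour and a few named genes ringed. The genes of G2 phase and mitosis and the replication-dependent histones lie below 0 over the whole range of levels, apart from 1 histone at 0.07, HSPA8 lies at -1.30, and p53 targets lie mostly above 0. Some of the most extreme grey points, such as PSMC4, are rows that share an identifier with another row and are uncertain.

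Chaperone genes of the cytosol, which fold new and damaged proteins, fell or did not pass the test. Of 27 such genes, 21 were tested, 11 were lower and none was higher, with a median log2 fold change of -0.20 against 0.0039 over all genes tested. At an unadjusted p under 0.05 none was higher and 14 were lower, and DESeq2 called none higher and 12 lower. HSPA8 (ENSG00000109971), the constitutive HSP70 of the cytosol, had 1107, 1289 and 1300.0 CPM in the DMSO libraries and 524, 509 and 472 CPM in the carfilzomib libraries. The highest carfilzomib library stood below the lowest DMSO library by more than the whole range within either group. Its log2 fold change was -1.30 ± 0.061 (SE), adjusted p = 2.12e-07, and it stayed called against a null fold change of 1.5.

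The promoter of HSPA8 is shown because the heat shock element is the site that HSF1 binds. It is taken from RefSeq on GRCh38.p14, chr11:123062137-123062386, minus strand, the 250 bases before the start, written 5′ to 3′ with the matches to GAA, TTC and GAA, with 2 bases between each, on either strand in capitals.
HSPA8: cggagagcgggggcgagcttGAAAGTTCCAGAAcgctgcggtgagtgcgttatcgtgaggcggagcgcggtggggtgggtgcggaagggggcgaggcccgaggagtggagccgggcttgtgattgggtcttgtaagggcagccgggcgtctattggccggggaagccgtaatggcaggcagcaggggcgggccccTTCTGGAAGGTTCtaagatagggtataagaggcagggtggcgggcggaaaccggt
The matches span positions -230 to -218 and -55 to -43 from the start. On both strands, 0.439% of the 27305 promoters in the RefSeq table hold this element, and 3 of the 19 tested chaperones with a promoter entry do. Beside HSPA8 these are CHORDC1, with a log2 fold change of 0.30, and DNAJB6 (-0.13), neither of them called. Of the 11 chaperones called lower, 1 holds the element. A match describes letters in the window and not binding.

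Of the co-chaperones of HSPA8, HSPH1, DNAJA1 and DNAJB1 fell, while DNAJB2 (-0.05), DNAJB4 (-0.12), DNAJB6 (-0.13), ST13 (-0.09) and HSPBP1 (0.12) were not called. HSPH1, a nucleotide exchange factor of HSP70, had 59.6, 74.3 and 61.2 CPM in the DMSO libraries and 39.8, 41.5 and 38.3 CPM in the carfilzomib libraries, a log2 fold change of -0.71 ± 0.085 (SE) with adjusted p = 0.000208. DNAJA1, a J-domain co-chaperone, went from 292, 296 and 300.2 CPM to 179, 188 and 179 CPM, a log2 fold change of -0.70 ± 0.040 (SE) and adjusted p = 8.36e-07. DNAJB1, the J-domain protein best known from the heat shock response, had a log2 fold change of -0.59 ± 0.059 (SE) and adjusted p = 4.58e-05. In none of the 3 genes that fell did a carfilzomib library reach the lowest DMSO library.

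Of the HSP90 system, HSP90AA1 fell from 2588 ± 192 to 1679 ± 68.5 CPM (SD, n = 3), which is -0.62 on the log2 scale (adjusted p = 9.87e-06). HSP90AB1 fell from 3379 ± 174 to 2944 ± 76.7 CPM, or -0.20 on that scale, with adjusted p = 0.00839. AHSA1, STIP1, CACYBP and PTGES3, which are co-chaperones of HSP90, had log2 fold changes of -0.42, -0.40, -0.35 and -0.27, and the small heat shock protein HSPB1 had -0.26, with adjusted p from 3.85e-05 to 0.00666. BAG3, a co-chaperone that links HSP70 to autophagy, had 102, 86.4 and 95.02 CPM in the DMSO libraries and 83.5, 89.02 and 91.6 CPM in the carfilzomib libraries. Its groups overlapped and its log2 fold change of -0.10 ± 0.065 (SE) did not pass the test (adjusted p = 0.393).

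The stress-inducible HSP70 genes were barely detected in RKO under both treatments. HSPA1A and HSPA1B are near-identical, so their 8 rows were summed, which gave 18, 24 and 50 counts after DMSO and 17, 30 and 15 counts after carfilzomib. The sum went from 1.82 ± 0.420 to 1.41 ± 0.688 CPM (SD, n = 3). Its log2 fold change was -0.40 ± 0.40 (SE) with adjusted p = 0.606, and the groups overlapped. HSPA6, the HSP70 member that is seen almost only under stress, had 1 to 4 counts per library and was too low to test. CRYAB had 0 to 1 and HSPB8 0 to 3 counts per library. In other lines the same sum rose by up to 9.60 on the log2 scale, in H-929, while it had -0.35 in DLD-1 and -0.14 in PANC-1 and passed the test in neither.

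Other chaperone groups were measured beside these. The TRiC chaperonin, the ring that folds actin and tubulin, had 7 of its 8 subunit genes lower and a median log2 fold change of -0.19, from -0.35 for TCP1 to -0.12. Without DMSO replicate 3, and again without carfilzomib replicate 3, only 4 of the 8 passed. Among 7 tested chaperones of the mitochondrion, HSPD1 (-0.36 ± 0.045 (SE), adjusted p = 0.000243) and HSPA9 (-0.24 ± 0.038 (SE), adjusted p = 0.00205) were lower. HSPA5, the HSP70 of the endoplasmic reticulum, had 1114, 1212 and 1186 CPM in the DMSO libraries and 1144, 1165 and 1178 CPM in the carfilzomib libraries, which overlapped completely (adjusted p = 0.905). None of the 24 tested genes of the endoplasmic reticulum chaperones and the unfolded protein response was called by edgeR or by DESeq2, and 1 higher and 3 lower passed an unadjusted p under 0.05. HSF4, a heat shock factor, was higher with a log2 fold change of 0.60 ± 0.11 (SE) and adjusted p = 0.00429. Of the 3 heat shock factors in the list 2 were tested, and the other tested one had -0.31, with no overlap and no call.

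RKO stood at the low end of the 8 lines for chaperones, each treated at its own concentration. Of the 21 tested chaperones, 13 had their lowest log2 fold change in RKO, some by little, such as CACYBP with -0.35 against -0.33. The share of all genes with their lowest value in RKO was not taken. DLD-1 also had 9 of 23 chaperones lower and 2 higher, with a median of -0.09 against -0.20 in RKO. Over all 16580 genes tested in DLD-1, 2005 were lower and 1812 higher. The test of the difference itself called 3 chaperones lower and 1 higher in RKO than in DLD-1, where 2.96% and 3.03% of 17445 genes were called lower and higher. Against the mean response of the other 7 lines, 16 of 26 were lower and none higher, where 9.76% and 12.7% of 22309 genes were. HSPA8 fell by 0.55 on the log2 scale in DLD-1 and rose in H-1299 (1.56), H-929 (1.10) and RPMI (1.29). The RKO response of HSPA8 minus that of DLD-1 was -0.73 (adjusted p = 0.000124) and minus the mean of the other 7 was -1.74 (adjusted p = 4.88e-19). HSP90AA1 had a log2 fold change of 0.0032 in DLD-1, and its RKO response differed from that by -0.62 ± 0.093 (SE), adjusted p = 0.000848. All comparisons with other lines use the same 6 RKO libraries, so they are not independent of each other.

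**Figure D2:**
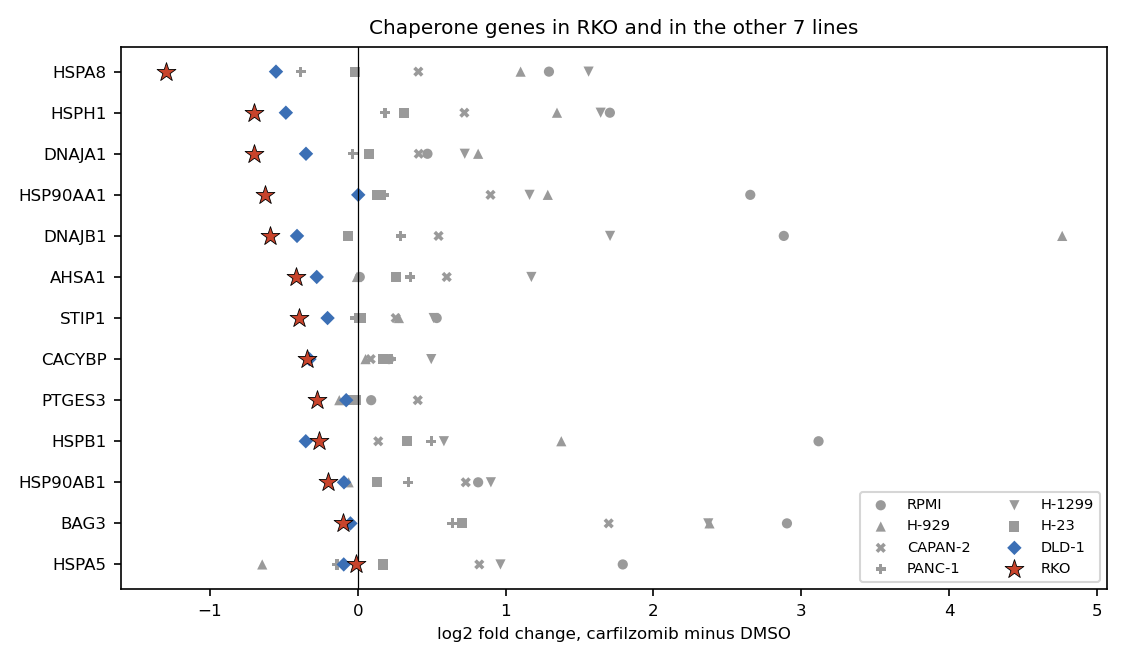
Log2 fold change (carfilzomib minus DMSO) of 12 cytosolic chaperone genes and of HSPA5 in each of the 8 lines, with RKO as red stars and DLD-1 as blue diamonds. RKO lies at or below 0 for every gene shown and is the lowest line for most of them, with HSPA8 at -1.30. The cytosolic genes shown are the 11 called lower in RKO and BAG3, so the picture follows from that choice. The tested chaperones above 0 in RKO, CHORDC1 (0.30), HSPBP1 (0.12) and HSPA4L (0.06), are not shown.

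No gene of the proteasome rose in RKO. Of the 13 tested genes of the core particle, which holds the catalytic sites, none was called in either direction, and the median log2 fold change was 0.01, with single genes from -0.21 (PSMA6) to 0.21 (PSMB4). At an unadjusted p under 0.05, 1 core gene was higher and 2 were lower, and DESeq2 called 1 higher. PSMB5, the subunit that carfilzomib binds, had 62.6, 69.01 and 72.02 CPM in the DMSO libraries and 70.01, 72.5 and 72.3 CPM in the carfilzomib libraries. Its groups overlapped, with a log2 fold change of 0.07 ± 0.063 (SE) and adjusted p = 0.533. Of the 19 genes of the regulatory particle, which recognises and unfolds tagged proteins, 2 were called lower and none higher, with a median of -0.06. PSMD12 was lower, with 187, 184 and 172 CPM after DMSO and 159, 162 and 150.1 CPM after carfilzomib and a log2 fold change of -0.20 ± 0.048 (SE) (adjusted p = 0.0219). That call was lost without DMSO replicate 1 or 2 or carfilzomib replicate 1 or 3, at adjusted p from 0.0518 to 0.12. The other, PSMC4, stands on a row that shares its identifier with another row, with 28.01 CPM in DMSO replicate 2 and under 2 CPM elsewhere, and is uncertain: without that library its log2 fold change was -0.67 (adjusted p = 0.399).

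In each other line most of these genes rose. In the other 7 lines, 7 to 13 of the 13 core genes and 14 to 19 of the 19 regulatory genes were higher, with medians from 0.26 to 1.24 for the core and from 0.45 to 1.31 for the regulatory particle. Those lines also had more calls over all genes tested, with 1812 to 4922 higher against 525 in RKO. The response was lower in RKO than in DLD-1 for 13 of 13 core and 19 of 19 regulatory genes, and lower than the mean of the other 7 lines for 13 and 18 of them. Of all genes tested, 2.96% were called lower than in DLD-1 and 9.76% lower than that mean. For PSMB5 the difference from DLD-1 was -0.39 ± 0.080 (SE) (adjusted p = 0.00902), and for PSMD12 it was -0.42 ± 0.076 (SE) (adjusted p = 0.00394). NFE2L1, which encodes the factor behind proteasome gene induction, had 167, 179 and 175 CPM in the DMSO libraries and 165, 182 and 162 CPM in the carfilzomib libraries and was not called (adjusted p = 0.739). Neither were DDI2 and NGLY1, whose products activate that factor, nor any of the 14 assembly factors and activators. In 1 ubiquitin gene the level fell: UBB went from 936 ± 65.9 to 593 ± 44.9 CPM (SD, n = 3). Its log2 fold change was -0.66 ± 0.061 (SE) with adjusted p = 2.35e-05. RPS27A, which encodes ubiquitin joined to a ribosomal protein, had -0.09 and was not called.

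Cell cycle genes fell. All 38 genes of the list for G2 phase and mitosis were lower, with a median log2 fold change of -0.76 and a range of -0.997 to -0.274. In bulk RNA, fewer cells in these phases and less of these transcripts per cell cannot be told apart. CENPE, a kinesin at the kinetochore, had 129.7, 124 and 123.05 CPM in the DMSO libraries and 61.5, 64.8 and 62.1 CPM in the carfilzomib libraries, a log2 fold change of -0.997 ± 0.051 (SE) with adjusted p = 3.9e-07. TTK, a spindle checkpoint kinase, had 27.2, 30.6 and 29.9 CPM in the DMSO libraries and 15.9, 14.6 and 14.4 CPM in the carfilzomib libraries (-0.97, adjusted p = 6.59e-05). Both genes were close to the same in all 3 libraries of a group and separated widely between groups. CENPF (-0.89), HMMR (-0.92), ASPM (-0.87) and TOP2A (-0.87), of the kinetochore, the spindle, the spindle pole and chromosome untangling, followed with adjusted p of at most 0.00741. CKAP2L, a spindle protein outside the list, had 43.5, 45.1 and 46.3 CPM after DMSO and 25.5, 24.1 and 22.4 CPM after carfilzomib and a log2 fold change of -0.91 ± 0.078 (SE).

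The promoters of PLK1, CCNB2 and CDC20 are shown as examples, chosen after their values were seen, because mitotic genes are known for a TTTGAA element (the cell cycle genes homology region) with CCAAT boxes upstream. Their products are a mitotic kinase, cyclin B2 and an activator of the anaphase-promoting complex. The RefSeq sequences on GRCh38.p14 are the 250 bases before the start at chr16:23678639-23678888, chr15:59104896-59105145 and chr1:43358731-43358980, all on the plus strand, 5′ to 3′, with TTTGAA and CCAAT on either strand in capitals.
PLK1: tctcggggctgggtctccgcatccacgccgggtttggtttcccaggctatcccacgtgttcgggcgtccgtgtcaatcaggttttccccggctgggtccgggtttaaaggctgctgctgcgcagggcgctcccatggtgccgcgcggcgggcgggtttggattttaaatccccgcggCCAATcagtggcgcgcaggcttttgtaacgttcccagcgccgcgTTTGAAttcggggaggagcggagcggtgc
CCNB2: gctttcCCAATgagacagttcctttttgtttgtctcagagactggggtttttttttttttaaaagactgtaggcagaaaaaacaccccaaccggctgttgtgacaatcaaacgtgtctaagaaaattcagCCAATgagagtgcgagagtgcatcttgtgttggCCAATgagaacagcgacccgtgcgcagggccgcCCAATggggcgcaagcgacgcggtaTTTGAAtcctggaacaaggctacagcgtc
CDC20: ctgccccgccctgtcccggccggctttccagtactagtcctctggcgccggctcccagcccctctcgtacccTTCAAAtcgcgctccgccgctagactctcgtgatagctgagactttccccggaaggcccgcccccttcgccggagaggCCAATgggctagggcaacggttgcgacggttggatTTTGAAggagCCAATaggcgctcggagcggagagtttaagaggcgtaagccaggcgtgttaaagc
The element nearest the start lies at -29 to -24 in PLK1 and in CCNB2, and at -65 to -60 in CDC20. PLK1 fell from 96.3 ± 2.25 to 56.2 ± 2.80 CPM (-0.78), CCNB2 from 52.9 ± 7.75 to 34.9 ± 1.20 CPM (-0.60) and CDC20 from 70.9 ± 2.52 to 42.4 ± 2.28 CPM (-0.74), as mean ± SD of 3 libraries and log2 fold change. TTTGAA occurred in 16 of the 32 promoters found for the G2 and mitosis genes, against 8.54% for all genes tested and 13.6% for all promoters in the table. CCAAT occurred in 24 of those 32, against 35.03% and 33.04%.

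Genes of DNA replication fell less. Of 39 tested, 30 were lower and none higher, with a median log2 fold change of -0.36. RRM2, the regulated subunit of ribonucleotide reductase, had 314, 331 and 316 CPM in the DMSO libraries and 219, 199.7 and 182 CPM in the carfilzomib libraries, a log2 fold change of -0.68 ± 0.058 (SE) with adjusted p = 1.42e-05. Thymidine kinase TK1 (-0.56), the origin protein ORC1 (-0.53), the helicase factors CDC45 (-0.52) and GINS1 (-0.49), and cyclin E2, CCNE2 (-0.48), were next in size. The call of CCNE2 was lost without carfilzomib replicate 3 (adjusted p = 0.0692). MCM6 (-0.13), POLE2 (-0.10) and CCNE1 (0.07) were among the 9 that were not called. Between 21 and 28 of the genes were lower when 1 library was left out.

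Replication-dependent histone genes, whose transcripts are made in S phase, had a median as low as that of the mitotic genes. Of 62 such genes, 47 were tested, 39 were lower and none higher, with a median log2 fold change of -0.78. Histone rows held 0.461% to 0.508% of all counts in the DMSO libraries and 0.291% to 0.296% in the carfilzomib libraries, so the groups did not overlap. H2AC20 had 109, 161 and 142 CPM in the DMSO libraries and 70.5, 84.3 and 65.6 CPM in the carfilzomib libraries, a log2 fold change of -0.91 ± 0.12 (SE) with adjusted p = 0.000483. H2BC18 (-0.90), H2BC21 (-0.89), H2BC11 (-0.88) and H2AC4 (-0.88) fell with an adjusted p of at most 4.74e-05. H2AC19 (-0.98), at 1.70 to 4.25 CPM, was called, but lost the call without any one library except carfilzomib replicate 2, at adjusted p from 0.0555 to 0.122. Histone genes resemble each other closely and reads may have been divided between copies. Most of their transcripts lack a poly(A) tail, and the labels name a total RNA library where the design text speaks of mRNA.

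The H2AC20 promoter is shown as a histone example, RefSeq on GRCh38.p14, chr1:149886668-149886917, plus strand, 250 bases before the start, 5′ to 3′, with CCAAT on either strand in capitals.
H2AC20: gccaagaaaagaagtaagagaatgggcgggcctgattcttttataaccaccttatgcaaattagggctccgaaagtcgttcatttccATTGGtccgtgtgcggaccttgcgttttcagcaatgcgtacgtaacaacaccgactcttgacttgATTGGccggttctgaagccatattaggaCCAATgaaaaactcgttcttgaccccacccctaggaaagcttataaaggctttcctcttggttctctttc
CCAAT occurred in 37 of the 43 promoters found for the tested histone genes. Of 10 genes that make and process histone transcripts, NPAT (-0.33, adjusted p = 0.0191) and SLBP (-0.19, adjusted p = 0.0413) were lower, and leaving out 1 library left 0 to 2 of them. Both calls were lost without DMSO replicate 1 or carfilzomib replicate 3, at adjusted p from 0.0524 to 0.183. NPAT also lost its call without DMSO or carfilzomib replicate 2, and SLBP without DMSO replicate 3 or carfilzomib replicate 1.

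Many mitotic genes fell further in RKO than in the lines compared. The median of the G2 and mitosis list was lower in RKO than in any of the other 7 lines, where it ran from -0.41 in DLD-1 to 0.12 in H-1299. The response of RKO was below that of DLD-1 for 20 of the 38 genes and above it for none, and below the mean of the other 7 lines for 35 and above it for none. For CENPE the difference from DLD-1 was -0.30 ± 0.073 (SE) (adjusted p = 0.0215), and for ASPM -0.45 ± 0.065 (SE) (adjusted p = 0.000635). Over all genes tested, 2.96% were called lower than in DLD-1 and 9.76% lower than the mean of the other 7 lines. Replication genes were lower than in DLD-1 for 3 of 39 and histones for 0 of 54, with 1 histone higher, where 3.03% of all genes were, so the histone counts do not exceed those shares. Against the mean of the other 7 lines, 13 replication genes were higher and 6 lower, where 12.7% and 9.76% of all genes were. The histone median of RKO, -0.78, lay between those of DLD-1 (-0.83) and H-23 (-0.73).

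**Figure D3:**
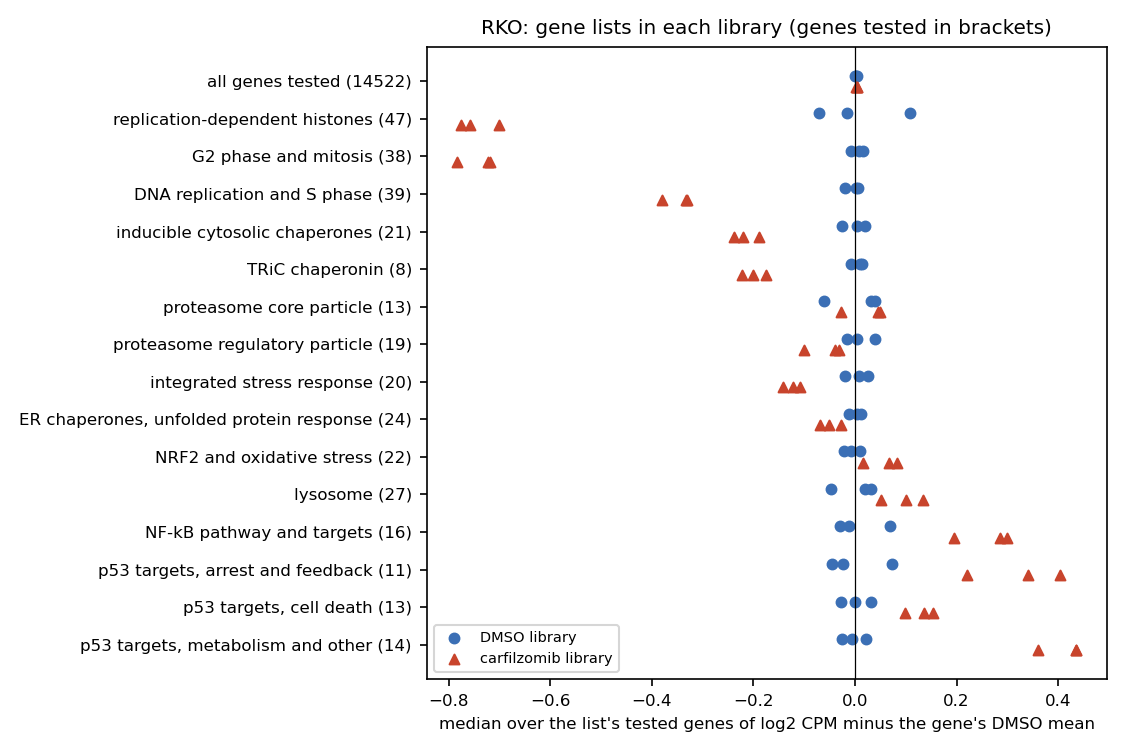
For each gene list, the median over its tested genes of log2 CPM minus the gene's DMSO mean, in each of the 3 DMSO libraries (blue circles) and the 3 carfilzomib libraries (red triangles) of RKO. Histones lie between -0.70 and -0.78 and the G2 and mitosis genes between -0.72 and -0.78 in the carfilzomib libraries, while the proteasome core overlaps between the groups and the p53 lists lie above the DMSO libraries.

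Targets of p53 rose in part. Over 4 lists, 42 genes were tested, 15 were higher and none lower, and 38 had a log2 fold change above 0, with a median of 0.27. Of all 14522 genes tested, 3.62% were higher and 5.28% lower, and 7364 had a log2 fold change above 0. MDM2, a ubiquitin ligase of the feedback part of the lists, had 287, 306 and 295 CPM in the DMSO libraries and 382, 372 and 391 CPM in the carfilzomib libraries, a log2 fold change of 0.37 ± 0.041 (SE) with adjusted p = 0.000116. ZMAT3, an RNA-binding protein, rose from 78.3 ± 3.40 to 108 ± 1.498 CPM (SD, n = 3), and GDF15, a secreted stress hormone, from 25.1 ± 3.24 to 36.4 ± 1.70 CPM, with log2 fold changes of 0.47 and 0.54. PLK3 (0.56, adjusted p = 0.0222) completed the 4 called of the 11 genes for arrest and feedback, but its call was lost without DMSO replicate 2 or carfilzomib replicate 2 or 3 (adjusted p from 0.0748 to 0.107).

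CDKN1A, which encodes the cell cycle inhibitor p21 and is the best known p53 target, was not among the rising genes. It had 80.3, 80.5 and 86.8 CPM in the DMSO libraries and 74.7, 90.1 and 87.01 CPM in the carfilzomib libraries, a log2 fold change of 0.02 ± 0.071 (SE) with adjusted p = 0.901, and the groups overlapped. Its sign turned to -0.033 without carfilzomib replicate 2 and to -0.0067 without carfilzomib replicate 3. CCNG1 (0.03), PPM1D (-0.02) and GADD45A (0.23) were not called either. Of the other CDK inhibitors and D-type cyclins, CDKN2B was lower (-0.31 ± 0.080 (SE), adjusted p = 0.0294), a call lost without any one library except DMSO replicate 2 (adjusted p from 0.0506 to 0.11), and CCND1 (0.02) and CCND2 (0.07) were not called.

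Among p53 targets for cell death, 2 of 13 were higher, where 3.62% of all genes tested were. FAS, a death receptor, had 13.3, 14.9 and 14.4 CPM after DMSO and 19.8, 20.5 and 23.7 CPM after carfilzomib, with 0.59 ± 0.12 (SE) and adjusted p = 0.00867. BAX, a pore former of the mitochondrial outer membrane, rose from 33.5 ± 1.97 to 46.3 ± 5.25 CPM (SD, n = 3), with 0.47 ± 0.089 (SE) and adjusted p = 0.00657. BBC3 (0.20) and PMAIP1 (-0.18), which encode PUMA and NOXA, and the receptor TNFRSF10B (0.12) were not called. Of 4 repair genes, the ribonucleotide reductase subunit RRM2B (from 138 ± 9.20 to 193 ± 7.46 CPM, 0.49) and the damage sensor XPC (0.27) were higher. Of 14 genes for metabolism and other tasks, 7 were higher, with SESN1 (0.87), TP53INP1 (0.64), the ferredoxin reductase FDXR (0.62), RPS27L (0.504) and CMBL (0.44) at adjusted p from 0.000238 to 0.00885. SPATA18, a mitochondrial quality control gene, had 1.28, 0.798 and 2.23 CPM after DMSO and 4.20, 4.99 and 3.28 CPM after carfilzomib, and its call (1.48, adjusted p = 0.0217) was lost without DMSO replicate 1 or 2 or carfilzomib replicate 1 or 2 (adjusted p from 0.056 to 0.093). Without carfilzomib replicate 3 the calls of FAS, SESN1 and XPC were lost, at adjusted p of 0.0659, 0.0618 and 0.0609.

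Compared with DLD-1, the response of RKO was higher for 3 of the 11 arrest genes, 1 of 15 death genes, 3 of 4 repair genes and 3 of 14 other genes, and lower for none, where 3.03% and 2.96% of all genes were called higher and lower. For the death genes 1 call is near that background. With the replicate number as a block, the count higher over all genes fell from 528 to 314. The difference was 0.88 ± 0.13 (SE) for GDF15, 0.76 ± 0.13 (SE) for FAS, 0.86 ± 0.13 (SE) for FDXR and 0.65 ± 0.085 (SE) for RRM2B, with adjusted p from 0.000281 to 0.00259. The median of the repair list was 0.27 in RKO and at most -0.03 in the other lines. For metabolism and other tasks the medians of RKO and H-929 were close, at 0.423 and 0.415, and that of RKO was 0.411 with GC groups, 0.372 without DMSO replicate 2 and 0.388 without carfilzomib replicate 2. For arrest and feedback RKO had 0.37, near CAPAN-2 (0.35) and H-1299 (0.32) and below H-929 (0.93). Against the mean of the other 7 lines the response of CDKN1A was lower in RKO, a difference of -0.61 ± 0.086 (SE) (adjusted p = 2.79e-07).

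**Figure D4:**
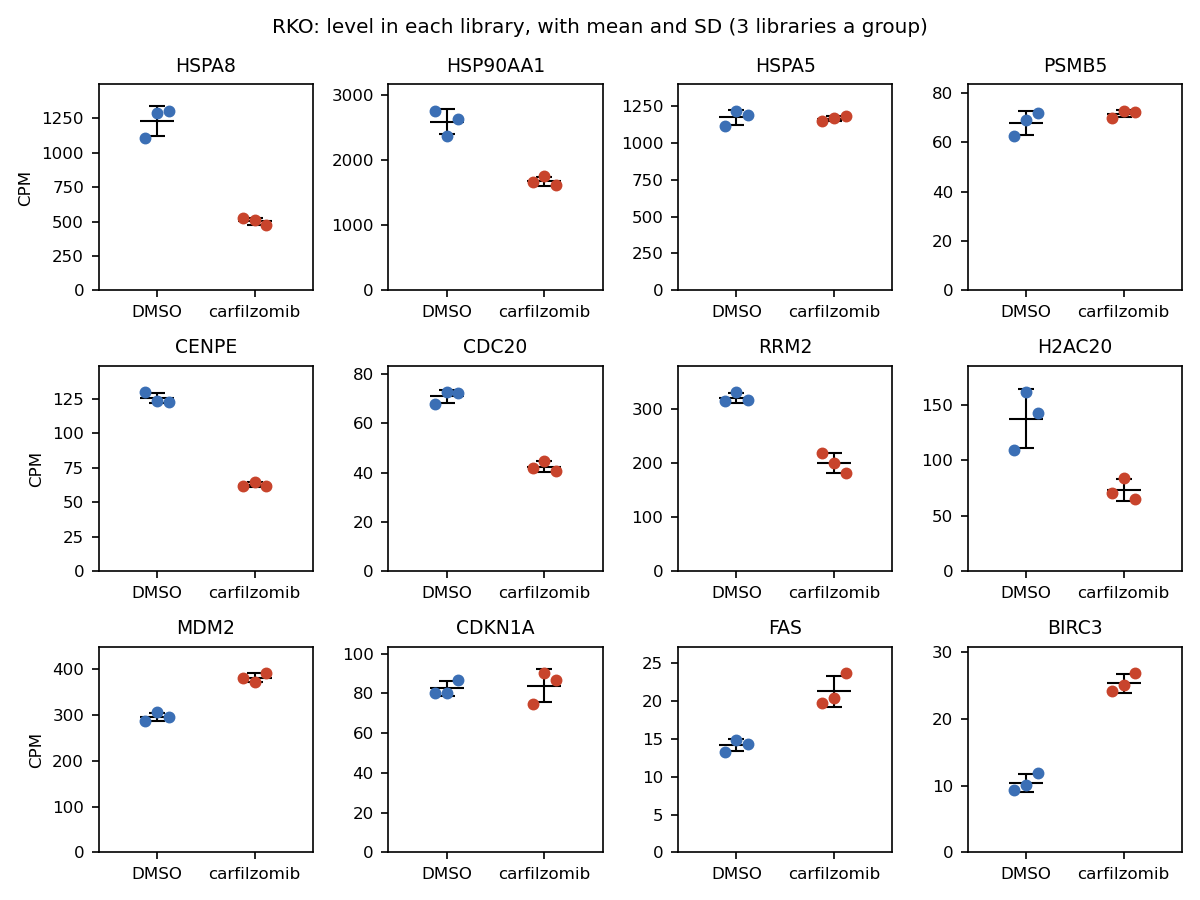
CPM of 12 genes in each of the 3 DMSO (blue) and 3 carfilzomib (red) libraries of RKO, with the group mean and its SD as black bars and every axis starting at 0. HSPA8, HSP90AA1, CENPE, CDC20, RRM2 and H2AC20 are lower in all carfilzomib libraries and MDM2, FAS and BIRC3 higher, while HSPA5, PSMB5 and CDKN1A overlap.

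Genes of the NF-kB pathway and its targets rose in part. Of 16 tested, 6 were higher and none lower, where 3.62% and 5.28% of all genes tested were. The median log2 fold change was 0.24. BIRC3, a ubiquitin ligase that NF-kB induces against cell death, had 9.29, 10.1 and 11.9 CPM in the DMSO libraries and 24.1, 25.1 and 26.8 CPM in the carfilzomib libraries, a log2 fold change of 1.27 ± 0.13 (SE) with adjusted p = 4.05e-05. TRAF1, an adaptor of tumour necrosis factor receptors, had 7.45, 5.44 and 7.82 CPM after DMSO and 11.8, 14.7 and 15.7 CPM after carfilzomib and 1.02 ± 0.18 (SE). TNFAIP2 (0.35), the adhesion molecule ICAM1 (0.32) and NFKB2 (0.27) rose less, and SOD2 (0.21) lost its call without any one library except carfilzomib replicate 1, at adjusted p from 0.0501 to 0.133. NFKB2 lost its call without carfilzomib replicate 3 (adjusted p = 0.0523). The response of BIRC3 was higher than in DLD-1 by 0.74 ± 0.15 (SE) (adjusted p = 0.00745) and that of TRAF1 by 0.92 ± 0.19 (SE) (adjusted p = 0.01). The list as a whole did not stand higher in RKO. Of 19 genes, 3 had a higher and 1 a lower response than in DLD-1, with a median difference of -0.0055. In DLD-1 itself 8 of 19 were higher, with a median of 0.30.

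Of 13 interferon and antigen presentation genes, 3 were higher. IFI6 had 4.49, 5.08 and 4.998 CPM after DMSO and 8.91, 9.68 and 10.3 CPM after carfilzomib, a log2 fold change of 0.99 ± 0.18 (SE). ISG15 (0.48) lost its call without DMSO replicate 2 or carfilzomib replicate 2 or 3 (adjusted p from 0.0571 to 0.0999), and HLA-C stands on a row that shares its identifier with another. In the BCL2 family, which sets the threshold of cell death, BAX and BCL2L1 (0.28, adjusted p = 0.0107) were higher and MCL1 (-0.15, adjusted p = 0.0121) lower among 16. Over all genes tested 3.62% were higher and 5.28% lower. The calls of BCL2L1 and MCL1 were lost without carfilzomib replicate 3 (adjusted p of 0.0689 and 0.0626), and that of BCL2L1 also without DMSO replicate 3 (0.0514).

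Some antioxidant genes rose. Of 22 tested NRF2 and oxidative stress genes, 4 were higher and none lower, where 3.62% and 5.28% of all genes tested were. The median was 0.06. HMOX1, which breaks down haem, had 32.4, 27.8 and 27.9 CPM in the DMSO libraries and 42.1, 48.7 and 48.8 CPM in the carfilzomib libraries, a log2 fold change of 0.67 ± 0.088 (SE) with adjusted p = 0.000447. BLVRB, a biliverdin reductase, had 0.48 (adjusted p = 0.00157) and NQO1, a quinone reductase, 0.38. NQO1 lost its call without carfilzomib replicate 3 (adjusted p = 0.0579). Without carfilzomib replicate 3, 2 genes of the list were higher. In the other lines 15 to 22 were, where 1812 to 4922 of all genes tested were higher, against 525 in RKO. The response of BLVRB differed from that of DLD-1 by -0.91 ± 0.078 (SE) (adjusted p = 8.82e-06), and that of HMOX1 from the mean of the other 7 lines by -1.47 ± 0.18 (SE) (adjusted p = 2.34e-08). The metal-binding metallothioneins MT1X (0.70) and MT2A (0.25) were higher among 5, the latter with no call without DMSO replicate 1 or 3 or carfilzomib replicate 2 or 3 (adjusted p from 0.0814 to 0.126).

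Lysosomal genes gave 10 of 27 higher and none lower, with a median of 0.03. CTSD, the aspartic protease of the lysosome, had 141, 132 and 141 CPM in the DMSO libraries and 182, 203 and 213 CPM in the carfilzomib libraries, a log2 fold change of 0.53 ± 0.058 (SE) with adjusted p = 9.02e-05. GRN, progranulin, had 206, 196 and 211 CPM after DMSO and 265, 282 and 279 CPM after carfilzomib and 0.43 ± 0.044 (SE) with adjusted p = 6.04e-05. The rest of the count was fragile: 2 genes were higher without carfilzomib replicate 2, 4 without carfilzomib replicate 3, 5 without DMSO replicate 1 or 3 or carfilzomib replicate 1, and 6 without DMSO replicate 2. Over all genes tested 3.62% were higher, and of 34 autophagy genes 3 were. ATG2A (0.29, adjusted p = 0.00327) and NBR1 (0.17, adjusted p = 0.0204), a lipid transfer protein and a cargo receptor, were 2 of them, and NBR1 lost its call without DMSO replicate 2 or carfilzomib replicate 2 or 3 (adjusted p from 0.056 to 0.0901). The third, the row of the cargo receptor SQSTM1, is uncertain: it shares its identifier with another row, and when such rows were summed its log2 fold change of 3.48 turned to -0.30 ± 0.53 (SE). GABARAPL1, a protein of the autophagosome membrane, had 8.41, 7.98 and 8.68 CPM after DMSO and 10.8, 10.1 and 13.7 CPM after carfilzomib, with no overlap and no call (0.46, adjusted p = 0.109), while a fit of all 48 libraries called it (adjusted p = 0.0152).

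Some genes of the integrated stress response fell. Of 20 tested, 6 were lower and 1 higher, with a median of -0.12, and the 1 higher gene, PCK2, stands on a row that shares its identifier. ATF4, the factor of this response, had 545, 509 and 550.0 CPM in the DMSO libraries and 477, 479.9 and 460.1 CPM in the carfilzomib libraries, a log2 fold change of -0.18 ± 0.042 (SE) with adjusted p = 0.0192. Its call was lost without DMSO replicate 3 or carfilzomib replicate 2 or 3 (adjusted p from 0.0543 to 0.102). PHGDH, the first enzyme of serine synthesis, fell from 246 ± 11.5 to 166 ± 11.04 CPM (-0.56, adjusted p = 3.78e-05), and TRIB3 had -0.40, CEBPG -0.32, the amino acid carrier SLC7A5 -0.25 and SHMT2 -0.20. SHMT2 lost its call without carfilzomib replicate 3 (0.0534). DDIT3 (CHOP) had 49.9, 45.2 and 42.3 CPM after DMSO and 38.8, 42.8 and 38.4 CPM after carfilzomib and was not called (-0.19, adjusted p = 0.166). ATF3 had 8.81, 5.66 and 8.27 CPM after DMSO and 10.8, 10.9 and 10.5 CPM after carfilzomib, with no overlap and no call (0.500, adjusted p = 0.123), while a fit of all 48 libraries called it (adjusted p = 0.000559). For 13 of 21 genes of this list the response was higher in RKO than in DLD-1, against 3.03% of all genes tested. Among them were ATF4 (a difference of 0.40 ± 0.072 (SE)) and ATF3 (1.06 ± 0.20 (SE)). The median of the list in DLD-1 was -0.63.

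Other lists held few calls, and for several the share called was close to the 3.62% higher and 5.28% lower over all genes tested. Among 19 cytosolic aminoacyl-tRNA synthetases, SARS1 (-0.35), EPRS1 (-0.21) and WARS1 (-0.19) were lower, and 5 were lower without DMSO replicate 1. Among 19 AP-1 and immediate early genes, 3 were lower, EGR3 (-0.42), EGR1 (-0.24) and IER2 (-0.15), and 1, MYC, higher, while a fit of all 48 libraries called none lower. Among 30 genes of cholesterol and fatty acid synthesis, 4 were lower, led by FADS2 at -0.84, and SREBF1 (0.22) was higher. Only 1 of these genes was lower without DMSO replicate 2 or 3 or carfilzomib replicate 1 or 3. Of 26 hypoxia and glycolysis genes, ALDOC rose (0.51) and NDRG1 fell (-0.34), and of 24 ribosome biogenesis genes, RRP12 rose (0.33) and NPM1 fell (-0.16), shares close to or below those over all genes. Of 77 ribosomal protein genes, 3 were lower, also no more than the share over all genes, with a median of -0.06, and the count was 18 without DMSO replicate 1 and 1 without carfilzomib replicate 3. MYC had 589.7, 595 and 632 CPM after DMSO and 656, 683 and 686 CPM after carfilzomib, a log2 fold change of 0.16 ± 0.041 (SE) and adjusted p = 0.0335, lost without DMSO replicate 1 or 2 or carfilzomib replicate 2 or 3 (adjusted p from 0.0819 to 0.14). Calls that depended on 1 library in these lists included those of IER2, IDI1, NDRG1, NPM1, RPL23 and RPL5, at adjusted p from 0.0503 to 0.162 without carfilzomib replicate 3 or another library.

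The largest rises lay mostly outside these pathways and at low levels. GPX3, a secreted glutathione peroxidase, had 4.33, 4.72 and 2.95 CPM in the DMSO libraries and 11.7, 13.3 and 15.1 CPM in the carfilzomib libraries, a log2 fold change of 1.76 ± 0.21 (SE) with adjusted p = 0.000185. SPTBN4 (a spectrin, 1.69), GRIK5 (a glutamate receptor subunit, 1.46) and DYSF (a membrane repair protein, 1.44) stayed under 6 CPM in every library. ARC (1.31), TRAPPC6A (1.28) and MLLT11 (1.28) were at similar levels, and each lost its call without 3 or more of the 6 libraries, carfilzomib replicate 3 and DMSO replicate 3 among them, at adjusted p from 0.0551 to 0.151. NALT1, a noncoding RNA, had 1.26. EPS8L2, an actin regulator, had 4.25, 3.56 and 4.86 CPM after DMSO and 9.93, 11.6 and 12.2 CPM after carfilzomib and 1.40 ± 0.19 (SE). CLU, an extracellular chaperone, stood out by its level, with 50.3, 53.7 and 50.2 CPM in the DMSO libraries and 115, 126 and 121 CPM in the carfilzomib libraries, a log2 fold change of 1.23 ± 0.057 (SE) and adjusted p = 2.12e-07. In GPX3, EPS8L2 and CLU every carfilzomib library lay above every DMSO library, but this was a condition for naming the largest rises.

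Some of these changes were larger in RKO than in DLD-1 by the test of the difference. MYOF, a membrane repair protein, went from 20.3, 20.7 and 17.8 CPM to 41.4, 38.6 and 40.3 CPM in RKO and had a log2 fold change of -0.0017 in DLD-1, a difference of 1.06 ± 0.10 (SE) (adjusted p = 1.87e-05). EPS8L2 differed by 1.16 ± 0.17 (SE) and MYO15B by 1.01 ± 0.14 (SE), with adjusted p = 0.000615 and 0.000403. In the other direction, ITGAX (-2.69 ± 0.17 (SE)), NOS3 (-1.71 ± 0.29 (SE)), HECW1 (-1.68 ± 0.21 (SE)), CD68 (-1.64 ± 0.10 (SE)) and TLR6 (-1.30 ± 0.13 (SE)) had a smaller response in RKO than in DLD-1, with adjusted p of at most 0.00192. CD68, a lysosomal membrane glycoprotein, had 847, 841 and 816 CPM after DMSO and 1001, 1053 and 1003 CPM after carfilzomib in RKO, 0.29 on the log2 scale, against 1.94 in DLD-1.

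**Figure D5:**
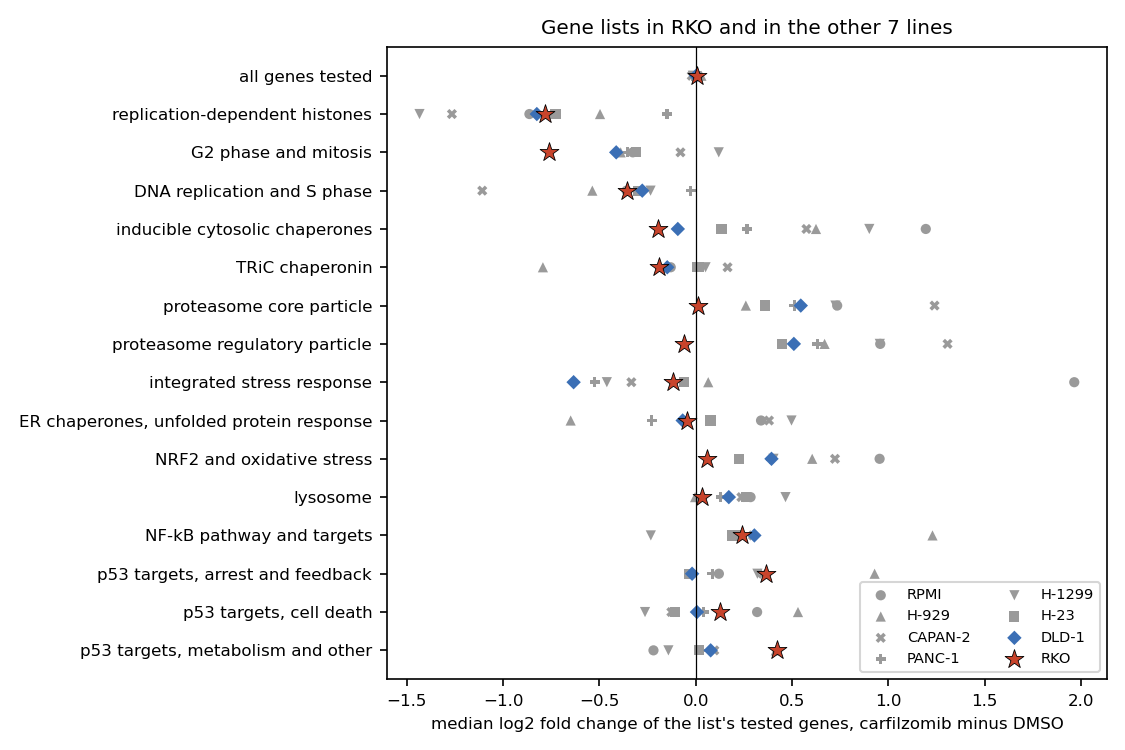
Median log2 fold change (carfilzomib minus DMSO) of the tested genes of each list in the 8 lines, with RKO as red stars and DLD-1 as blue diamonds. RKO is the lowest line for both proteasome lists, for inducible chaperones, for the G2 and mitosis genes and for NRF2 genes, and its median for p53 targets of metabolism and other tasks (0.423) lies beside that of H-929 (0.415).

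GC content moved with the changes. The median transcript GC was 56.7% for genes called higher, 44.8% for those called lower and 48.02% for all tested. The median log2 fold change went from -0.03 in the lowest of 10 groups of genes by GC to 0.11 in the highest. In log2 CPM, the highest group minus the lowest was -0.01 to -0.10 in the DMSO libraries and 0.06 to 0.08 in the carfilzomib libraries. Histones, at 58.1% GC, had a median as low as that of the G2 and mitosis genes at 42.9%. The part of GC content in the single calls was not tested beyond the centring that follows. With log2 CPM centred in 10 groups of GC, 447 genes were higher and 746 lower, the G2 and mitosis list had 38 of 38 lower, histones 41 of 47, chaperones 11 of 21, and the p53 lists 4 of 11, 2 of 13, 2 of 4 and 8 of 14 higher. The calls of GAA, SGSH, NFKB2, SREBF1, TRAPPC6A, NOS3 and SLBP were among those lost there.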

How the data were processed

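Gene counts of 48 libraries were used as the authors deposited them, whole-number counts of reads per gene and not normalized. Libraries were TruSeq stranded total RNA, per the labels' protocols, although the design text of the series speaks of mRNA. The submitters' processing notes name bcl2fastq 2.19, FastQC, Trimmomatic, HISAT2, DESeq2 and hg38, without role or order. The counting program, the annotation and the use of strand are not given in the sources used here, so reads of overlapping, antisense or near-identical genes may have been counted together or divided. Groups come from the labels, and no per-sample column was left unmapped (0).

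Carfilzomib was compared with DMSO in the 6 RKO libraries with edgeR 4.0.16 (quasi-likelihood F test, TMM scaling, filterByExpr, limma 3.58.1, R 4.3.3) and Benjamini-Hochberg adjustment over all genes tested, with calls at an adjusted p under 0.05. Response differences were contrasts in fits of the 12 libraries of RKO and DLD-1 and of all 48 libraries. Standard errors are the log2 fold change divided by the square root of F. Depth was 12649819 to 22555980 counts per RKO library with TMM factors of 0.977 to 1.02. Any 2 libraries of 1 group differed by more than sampling noise (chi-square per degree of freedom 4.10 to 6.37). The scripts were tested on simulated data.

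Named genes were the 12 highest and the 12 lowest calls by log2 fold change. Conditions were at least 50 counts on average in the higher group, no overlap between groups and a row of their own. Added to them were a fixed set of stress and cell cycle genes, up to 6 called members of each list, and the 5 largest called response differences in each direction. These differences were ranked only among genes called in RKO under the same conditions, so larger ones may lie outside them. The members and lists were chosen with earlier results of these data known. Lists are given by counts and medians, with no test of a list. Results of a few genes are not reported here. Promoters are RefSeq sequences on GRCh38.p14, matched by symbol, with motifs sought on both strands in the 250 bases before the start. Transcript GC came from the reference annotation, matched by gene, for 96.3% of the genes tested.

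Alternatives were DESeq2 1.42.0 (size factors, and its Wald test), library totals, no filter or a mean of at least 50 counts, the replicate number as a block, a test against a fold change of 1.5, 1 fit of all libraries, rows that share an identifier removed or summed, and each library left out. Centring within 10 groups of GC was added after seeing the data. The labels number the replicates 1 to 3 in both groups. Deviations of same-numbered libraries from their group means correlated at 0.05, 0.15 and 0.03 over 11705 genes, so the numbers were not taken as pairs.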

Additional observations from a re-analysis of the deposited data

Results flagged for a closer look

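The genes looked at here are those named for a large response difference and the fixed set of stress and cell cycle genes. For 18 of these the response to carfilzomib in RKO differed from that in DLD-1 by the test of the difference itself. Members of the lists that also differed, such as HSP90AA1 and BLVRB, are given with their lists and not counted here. The difference of the log2 fold changes, RKO minus DLD-1, was below 0 for ITGAX (-2.69), NOS3 (-1.71), HECW1 (-1.68), CD68 (-1.64), TLR6 (-1.30), HSPA8 (-0.73), PSMD12 (-0.42) and PSMB5 (-0.39). It was above 0 for TRAPPC6A (1.39), DYSF (1.31), EPS8L2 (1.16), ATF3 (1.06), MYOF (1.06), MYO15B (1.01), GDF15 (0.88), DDIT3 (0.51), ATF4 (0.40) and MDM2 (0.39). Adjusted p ran from 6.23e-07 to 0.0447 with edgeR's quasi-likelihood test. The call of DYSF was lost without any one RKO library except carfilzomib replicate 3, at adjusted p from 0.0583 to 0.0984, and with DESeq2 size factors (0.0502). That of TRAPPC6A was lost without DMSO replicate 3 or carfilzomib replicate 1 or 3, at 0.0516 to 0.0712.

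By the same choice of genes, the response of RKO differed for 24 from the mean response of the other 7 lines in the fit of all 48 libraries. The difference, RKO minus that mean, was below 0 for DNAJB1 (-1.93), LAMA1 (-1.93), HSPA8 (-1.74), EGR3 (-1.70), HSP90AA2P (-1.62), BAG3 (-1.58), HMOX1 (-1.47), GABARAPL1 (-1.47), HSPH1 (-1.44), DDIT3 (-1.25), PSMD12 (-0.93), CDKN1A (-0.61), ATF3 (-0.59), PSMB5 (-0.42), HSPA5 (-0.37) and NFE2L1 (-0.32). It was above 0 for SQSTM1 (1.74), TRAPPC6A (1.64), SLC4A8 (1.499), PLEKHG4 (1.43), SRD5A3 (1.39), EPS8L2 (1.39), CCND1 (0.78) and MYC (0.23). Adjusted p ran from 6.37e-21 to 0.0248. MYC lost its call without DMSO replicate 1 (adjusted p = 0.052), and SQSTM1, which stands on a row that shares its identifier, without DMSO replicate 2 (0.0897) or carfilzomib replicate 1 (0.361). HSP90AA2P is a pseudogene close in sequence to HSP90AA1, and its reads may belong to that gene. Both sets of differences use the same RKO libraries and are not independent of each other.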

How the results depend on the processing

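In no alternative did a gene called both there and in the main comparison change sign. DESeq2 size factors gave 527 genes higher and 768 lower, and the DESeq2 Wald test 632 and 918. Library totals gave 807 higher and 519 lower, no filter 794 and 1089, removal of rows that share an identifier 783 and 979 with 13925 genes tested, and a null fold change of 1.5 gave 6 and 8. Leaving out 1 library gave 197 to 482 higher and 403 to 774 lower, with 14686 to 14980 genes tested. For the response of RKO against DLD-1 it gave 360 to 485 higher and 380 to 472 lower, and against the other 7 lines 2417 to 2662 and 1741 to 2074. The sum of HSPA1A and HSPA1B ran from -0.85 to -0.17 (adjusted p from 0.285 to 0.886). The Wald test was not run on that sum. The cause of these shifts was not tested, except that leaving out a library leaves 5 samples.

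With the replicate number as a block, 571 genes were higher and 813 lower in RKO, and the sum of HSPA1A and HSPA1B had -0.44 (adjusted p = 0.587). The block moved the count of genes higher in RKO than in DLD-1 from 528 to 314 and the count lower from 516 to 395. Against the other 7 lines it gave 2725 and 2044. Under the block the differences from DLD-1 of DYSF (adjusted p = 0.0616) and TRAPPC6A (0.0534) and those from the other 7 lines of EGR3 (0.0513) and SQSTM1 (0.0533) were not called. Every library except carfilzomib replicate 3 deviated most closely with its own number, a hint from the data and not from the design.

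The signs that turned belong to genes with no call, apart from SQSTM1, which had -0.30 with shared rows summed. HSPA5 had 0.031 with library totals and 0.011 with GC groups, and -0.045 to 0.013 with 1 library left out, above 0 without DMSO replicate 2. NFE2L1 had 0.0074 with library totals. CDKN1A had -0.027 with GC groups and -0.033 to 0.099 with 1 library left out, below 0 without carfilzomib replicate 2 or 3 (-0.0067). CCND1 had -0.0026 to 0.042, below 0 without carfilzomib replicate 2. The RKO response minus that of DLD-1 ran from -0.096 to 0.016 for BAG3, above 0 without DMSO replicate 1, and from -0.029 to 0.024 for MYC, above 0 without DMSO replicate 3 or carfilzomib replicate 1 (0.0077). HSPA6, HSPB8 and CRYAB were too low for a test at this depth.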

Other observations

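The genes that follow, of the cytoskeleton and of chromosome structure, were chosen after their values were seen and do not stand for those groups as a whole. The tubulin gene TUBA1B had 512, 507 and 504 CPM in the DMSO libraries and 280.3, 286 and 289 CPM in the carfilzomib libraries, a log2 fold change of -0.83 ± 0.037 (SE) with adjusted p = 2.12e-07 in edgeR's quasi-likelihood test. TUBB4B (-0.73), TUBA1C (-0.69) and TUBG1 (-0.52), 2 tubulins of microtubules and the one that nucleates them, were lower as well. The cytoplasmic actins ACTB and ACTG1 were among the most abundant genes that fell, with from 3251 ± 72.5 to 2558 ± 69.4 CPM and from 3409 ± 72.1 to 2819 ± 134 CPM (SD, n = 3), log2 fold changes of -0.35 and -0.27. Of proteins that shape chromatin and chromosomes, the condensin subunits SMC4 (-0.71) and NCAPG (-0.75), HMGB2 (-0.64), the histone variants H2AX (-0.52) and H2AZ1 (-0.41), and the lamin LMNB1 (-0.39) were lower, with adjusted p of at most 0.00136.

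Among genes that rose at low levels, MIR34AHG, the host transcript of the microRNA miR-34a, had 3.04, 3.99 and 3.82 CPM after DMSO and 6.62, 8.65 and 8.76 CPM after carfilzomib, a log2 fold change of 1.14 ± 0.21 (SE) with adjusted p = 0.00514. CD82, a membrane protein of the tetraspanin family, had 3.12, 3.27 and 3.77 CPM after DMSO and 5.98, 9.02 and 7.497 CPM after carfilzomib and 1.14 ± 0.22 (SE) with adjusted p = 0.00668. In both genes the lowest carfilzomib library stood above the highest DMSO library. Each gene described above in these paragraphs kept its call in all 6 fits that left out 1 RKO library. RNY1 and RNY4 were put through the same fits and are not described, so the genes given are those that passed. Neither was called without DMSO replicate 3 or carfilzomib replicate 2 or 3 (adjusted p from 0.0568 to 0.176).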
